A study of Mus musculus with 8 samples.

Results

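T cell receptor V segments were read on 8 microarrays of sorted mouse CD8 T cells, as the rows of the value table that carry exactly 1 gene symbol of a receptor segment. The symbols searched were those beginning with Trav, Trbv, Trgv, Trdv, Traj or Trbj, and the constant genes of the alpha, beta, gamma and delta chains. Of 41345 rows, 21 qualified, and they carried 8 gene symbols. There were 18 rows of 5 V alpha segments (Trav12-2 with 6 rows, Trav9d-3 with 5, Trav14d-3-dv8 and Trav7-4 with 3 each and Trav3-4 with 1). The V beta segment Trbv13-2 had 1 row, and the V gamma segments Trgv5 and Trgv6 had 1 row each. No qualifying row was named for a joining segment or a constant gene, so those were not analysed here, and the set holds V segments only. Another row with a V alpha symbol beside a second symbol was left out by the rule.

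The cells came from spleens of female C57BL/6 mice (the strain label reads C56BL/6) that all carried transplanted leukaemia cells of Eµ-TCL1 mice, a model of chronic lymphocytic leukaemia in which the malignant cell is a B cell. Treatment with an isotype control antibody (4 arrays) or an antibody that blocks the IL-10 receptor (anti-IL-10R, 4 arrays) began 3 weeks after transplantation and lasted 2 weeks, and the cells were sorted at 5 weeks. The gate was Lin-, TCRb+, CD8+, CD127 low, CD44 intermediate to high and PD-1 high, the surface pattern of antigen-experienced effector cells. The labels do not say whether an array held the cells of 1 mouse or of several, so the p-values measure only the spread between arrays.

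A T cell builds its receptor by joining 1 V segment to a J segment in each chain, with a D segment between them in the beta and delta chains, and all daughters of that cell keep the same join. In a population of many clones, the RNA of a given V segment is therefore an average over many cells, whereas in a population dominated by a few expanded clones it follows the segments those clones happen to use. The alpha locus of C57BL/6 mice holds near-identical copies of many V segments, marked by the letters d and n in their names. In bulk RNA, fewer cells that use a segment and less RNA per cell cannot be told apart.

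The families of the V alpha segments are large in the RefSeq genes of GRCm38.p6, with 10 members for Trav12, 11 for Trav9, 9 for Trav14, 14 for Trav7 and 8 for Trav3. In that table's order along the locus, Trav9d-3 comes before Trav14d-3-dv8, Trav7-4, Trav12-2 and Trav3-4. The rows covered 5 of its 130 Trav symbols. Several rows shared 1 symbol, and 2 pairs of Trav12-2 rows held identical values on all 8 arrays (transcript clusters 17299849 and 17299926, and 17299857 and 17299934), which leaves 19 distinct profiles among the 21 rows. Which family members each row's probes read was not tested, so a row is named here by its annotated symbol and its transcript cluster number. Levels are log2 values, comparable between arrays within a row. Between rows they do not measure relative amounts of RNA, and dim or bright refers only to a row's place among the levels of the other rows.

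**Figure D1:**
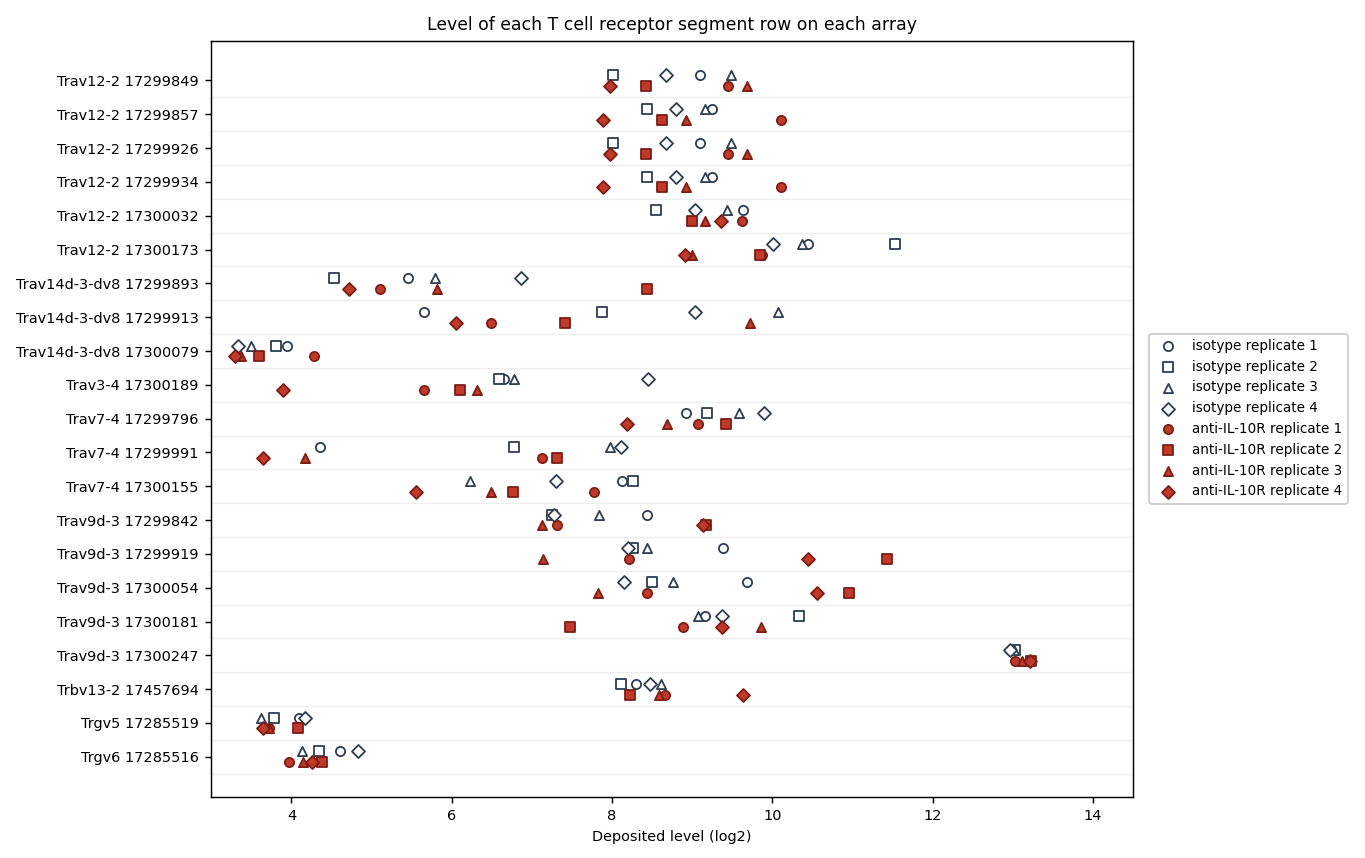
Level (log2) of each of the 21 segment rows on each array, with isotype arrays as open symbols above filled anti-IL-10R symbols and the symbol's shape giving the replicate number. In the Trav9d-3 row 17300247 all arrays lie between 12.96 and 13.23, whereas the Trav7-4 row 17299991 runs from 3.64 to 8.11.

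The V alpha rows varied widely from array to array, in both groups. The range between the highest and the lowest array had a median of 2.42 on the log2 scale over the 18 Trav rows, a 5.35-fold span. Over all 41345 rows the median range was 0.77, and over the 20673 rows with a mean of at least 5.24 (the median of all row means) it was 0.84, a 1.8-fold span. A range of at least 2, which is 4-fold, was reached by 12 of the 21 segment rows, all of them Trav rows and together covering all 5 V alpha symbols. Among all rows 9.44% reached it, and among the rows with a mean of at least 5.24 it was 11.0%. Without isotype replicate 1, an array that stands apart from the others over the whole table, the count was again 12 of 21, against 5.65% of all rows. Without anti-IL-10R replicate 4 it was 10 of the 18 Trav rows, against 8.73% of all rows.

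The SD over the 8 arrays placed most V alpha rows near the top of the table. Of the 17 Trav rows with a mean of at least 5.24, 10 had an SD at or above the 90th percentile of the rows with such a mean, and 7 lay at or above the 95th. The highest were the Trav7-4 row 17299991 (SD 1.82, percentile 99.7) and the Trav14d-3-dv8 row 17299913 (SD 1.69, percentile 99.5). The lowest was the Trav9d-3 row 17300247, with an SD of 0.10 at percentile 3.8. That row lies near the top of the scale, which ends at 13.89. Whether its probes read Trav9d-3 alone, other segments or a part shared by many alpha chains was not tested, so its small spread is not shown to be that of Trav9d-3. The invariant receptor chains Cd3d, Cd3e and Cd3g, which carry the signal of every T cell receptor, had ranges of 0.44, 0.38 and 0.36. The coreceptor genes Cd8a and Cd8b1, also used in the sort, had ranges of 0.42 and 0.59.

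**Figure D2:**
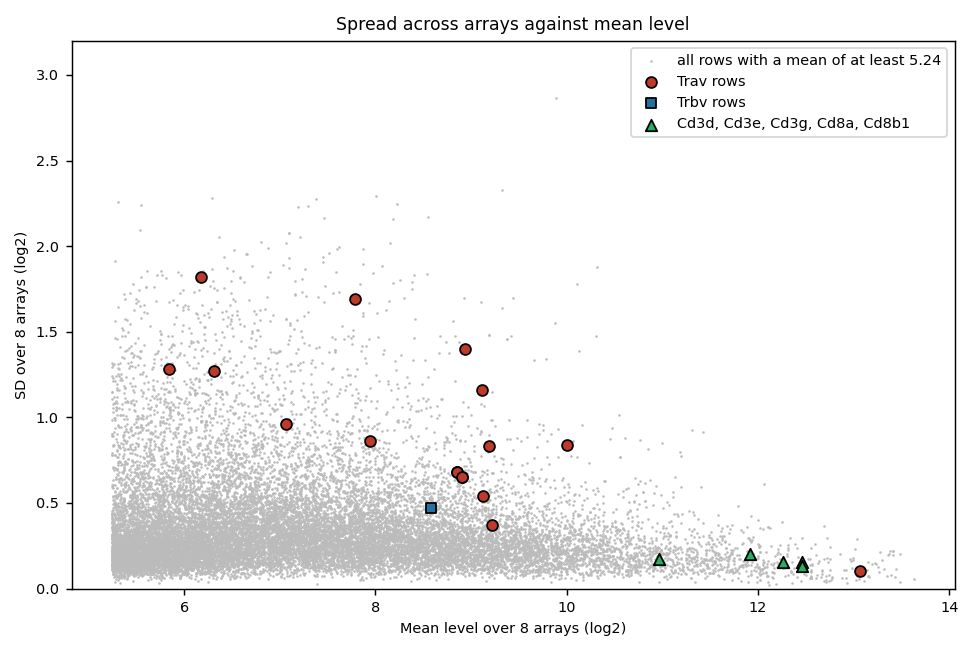
SD over the 8 arrays against the mean level of each row (both log2), for all rows with a mean of at least 5.24 in grey, Trav rows as red circles, the Trbv row as a blue square and invariant receptor and coreceptor genes as green triangles. Most Trav rows lie above the bulk of rows of similar level, with SDs up to 1.82. The Trav9d-3 row 17300247 lies to the right of the green triangles, with an SD of 0.10.

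Trav9d-3 showed the clearest pattern shared by several rows. In the row 17299919 the isotype levels were 9.39, 8.26, 8.43 and 8.20 for replicates 1 to 4, and the anti-IL-10R levels were 8.21, 11.43, 7.14 and 10.45. Anti-IL-10R replicates 2 and 4 stood 7.24-fold and 3.68-fold above the isotype mean of 8.57, while replicate 3 of the same group was the lowest of all 8 arrays. Highest and lowest array were 19.6-fold apart.

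The rows 17300054 and 17299842 of Trav9d-3 put the arrays in a similar order. In the first, isotype replicates 1 to 4 were at 9.68, 8.50, 8.76 and 8.15 and anti-IL-10R replicates at 8.44, 10.96, 7.82 and 10.56. In the second the levels were 8.44, 7.25, 7.84 and 7.28 against 7.31, 9.17, 7.13 and 9.14. In all 3 rows anti-IL-10R replicates 2 and 4 were the highest arrays, followed by isotype replicate 1, and anti-IL-10R replicate 3 was the lowest. These rows carry the same symbol and may share probes, so they are not independent readings.

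The other Trav9d-3 rows differed from those 3 in the order of the arrays or in spread. In the row 17300181 anti-IL-10R replicate 2, the highest array in the rows above, was the lowest at 7.48. Its remaining anti-IL-10R levels were 8.88, 9.86 and 9.37 and its isotype levels 9.16, 10.33, 9.07 and 9.37. The row 17300247 was nearly flat, at 12.97, 13.02, 13.01 and 12.96 with isotype antibody, and at 13.03, 13.23, 13.11 and 13.21 with blockade. Its highest arrays were again anti-IL-10R replicates 2 and 4, as in 4 of the 5 Trav9d-3 rows, but its range was only 0.26. All 4 anti-IL-10R arrays lay above the isotype arrays in that row, by a mean of 0.16.

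Trav14d-3-dv8, a V segment that can serve in alpha and in delta chains, varied by array and also by row. The row 17299913 had isotype levels of 5.65, 7.87, 10.07 and 9.04 and anti-IL-10R levels of 6.49, 7.41, 9.72 and 6.05. Isotype replicate 3 and anti-IL-10R replicate 3 were high in it, isotype replicate 1 was the lowest array, and the span was 21.3-fold. In the row 17299893 a different array led, since anti-IL-10R replicate 2 stood at 8.44 and the next array, isotype replicate 4, at 6.86. The other arrays of that row lay between 4.53 and 5.82. The row 17300079 was dim on every array, between 3.30 and 4.28.

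Trav3-4 had a range of 4.55 or 23.5-fold. Its isotype levels were 6.65, 6.59, 6.78 and 8.45, and its anti-IL-10R levels were 5.66, 6.10, 6.32 and 3.90. Isotype replicate 4 stood 3.19-fold above the next array, and anti-IL-10R replicate 4 stood 1.76 below the next lowest. That lowest level, 3.90, lies within those of dim rows such as Trgv5 (3.62 to 4.17) and Trav14d-3-dv8 17300079 (3.30 to 4.28), so the size of the span is uncertain. Every isotype array was above every anti-IL-10R array.

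Trav7-4 separated arrays within each group. In the row 17299991 the isotype levels were 4.36, 6.78, 7.97 and 8.11 and the anti-IL-10R levels 7.13, 7.31, 4.17 and 3.64. Isotype replicate 1 and anti-IL-10R replicates 3 and 4 were thus at low levels and the other 5 arrays at high ones, with a gap from 4.36 to 6.78 between them. The low levels, like the lowest of Trav3-4, are close to those of dim rows, so the size of this span is uncertain too. The row 17300155 followed another order, with isotype levels of 8.13, 8.26, 6.23 and 7.30 and anti-IL-10R levels of 7.77, 6.76, 6.49 and 5.56. The row 17299796 was more even, at 8.92, 9.19, 9.58 and 9.89 against 9.07, 9.42, 8.68 and 8.19. In all 3 Trav7-4 rows the lowest array was anti-IL-10R replicate 4.

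Trav12-2 had ranges of 1.08 to 2.62 over its 6 rows. In the row 17300173 the isotype levels were 10.44, 11.53, 10.37 and 10.01 and the anti-IL-10R levels 9.87, 9.84, 9.00 and 8.91, and the groups did not overlap. In the identical rows 17299857 and 17299934 anti-IL-10R replicate 1 was the highest array at 10.11 and anti-IL-10R replicate 4 the lowest at 7.89. The isotype arrays lay inside that span, between 8.43 and 9.25. The identical rows 17299849 and 17299926 ran from 7.97 to 9.68, with replicate 3 of each group highest. The row 17300032 had the smallest range of the 6, 1.08, with levels from 8.55 to 9.63.

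**Figure D3:**
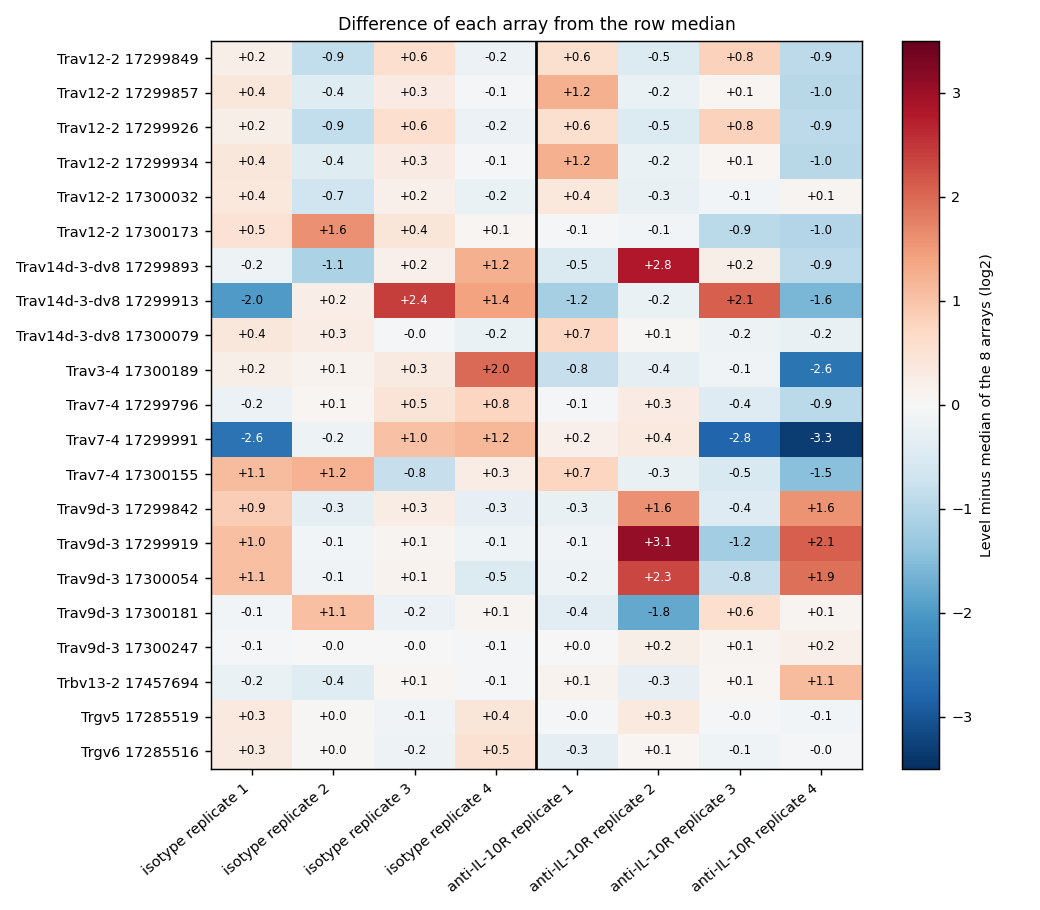
Level of each array minus the median of the 8 arrays of that row (log2), as colour and number, with isotype arrays left and anti-IL-10R arrays right of the black line. The strongest colours fall on different arrays in different rows, and the column of anti-IL-10R replicate 4 is blue in most Trav rows and red in 3 Trav9d-3 rows and in Trbv13-2.

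The single V beta row was more even than most V alpha rows. Trbv13-2, a segment known under the older name V beta 8.2, had isotype levels of 8.30, 8.11, 8.61 and 8.47 and anti-IL-10R levels of 8.66, 8.23, 8.59 and 9.63. Anti-IL-10R replicate 4 stood 1.95-fold above the next array, and the other 7 arrays lay within 8.11 to 8.66. The SD of this row over the 8 arrays was 0.47 (percentile 78.2 among rows with a mean of at least 5.24).

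The V gamma rows, which belong to the receptor of gamma delta T cells, were dim on all arrays. Trgv5 ranged from 3.62 to 4.17 and Trgv6 from 3.97 to 4.83, below the median of row means on every array. Of 6 marker genes listed for gamma delta T cells, 4 were measured, and their mean per array was 4.98 to 5.29 with isotype antibody, and 4.96 to 5.32 with blockade. Sox13, a transcription factor, lay between 6.13 and 6.80, Cd163l1, a scavenger receptor, between 4.70 and 5.72, and Blk, a kinase that is also on the B cell list, between 4.88 and 5.85. Il23r, the receptor for interleukin 23, lay between 3.12 and 3.59 and was the only one of the 4 with a mean below the median of row means. The gate selected TCRb+ cells, and the part of gamma delta T cells in the V segment levels was not tested.

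A single array could stand clear of the other 7. The highest array was at least 1 (2-fold) above the second-highest in 3 of the 21 rows, against 3.12% of all rows. These were Trav12-2 17300173 in isotype replicate 2 (gap 1.09), Trav3-4 in isotype replicate 4 (1.67) and Trav14d-3-dv8 17299893 in anti-IL-10R replicate 2 (1.58). The mirror case, a lowest array at least 1 below the second-lowest, also held for 3 rows, against 3.6% of all rows. These were Trav3-4 in anti-IL-10R replicate 4 (1.76), Trav9d-3 17300181 in anti-IL-10R replicate 2 (1.40) and Trav9d-3 17299919 in anti-IL-10R replicate 3 (1.06). Of the 12 rows with a range of at least 2, 5 had such a gap at either end and 7 had none.

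Every array was the highest in at least 1 V alpha row except anti-IL-10R replicate 4. That array was the lowest in 10 of the 18 Trav rows (8 of the 16 distinct profiles), whereas it was the lowest in 10.3% of all rows. Its median absolute distance from the median of the other arrays was 1.11 over the Trav rows, against 0.51 to 0.71 in the rest of its group and 0.40 to 0.49 among isotype arrays. With other arrays left out singly it stayed the highest, at 0.97 to 1.29. The other 7 arrays overlapped between groups in this check, since anti-IL-10R replicates 1 to 3 ran from 0.54 to 0.74, 0.36 to 0.65 and 0.56 to 0.75, and isotype replicate 2 was at 0.87 without isotype replicate 4. Over all rows the same measure was 0.15 to 0.18 in 7 arrays and 0.35 in isotype replicate 1. The array that differed most over the Trav rows was therefore not the one that differed most over the table.

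**Figure D4:**
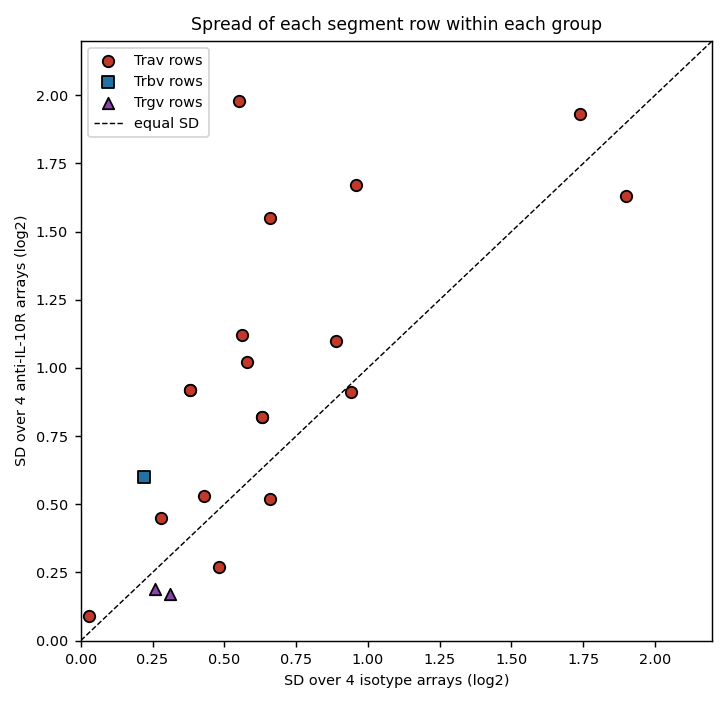
SD over the 4 anti-IL-10R arrays against the SD over the 4 isotype arrays for each segment row (both log2), with the dashed line marking equal SDs. Of 18 Trav rows, 14 lie above the line, and identical rows share a point.

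Within the groups, V alpha rows were more spread in the anti-IL-10R arrays than in the isotype arrays, by counts and medians that were not tested. The median SD of the Trav rows was 0.92 in the anti-IL-10R group and 0.61 in the isotype group, and 14 of 18 rows (12 of 16 distinct profiles) had the larger SD after IL-10R blockade. Over all rows the medians ran the other way, 0.18 against 0.26, and 29.4% of rows had the larger SD in the anti-IL-10R group. Without isotype replicate 1 the count was 15 of 18 Trav rows against 51.3% of all rows. Without anti-IL-10R replicate 4 it was 12 of 18 against 25.9%, and the median SD of the Trav rows in the anti-IL-10R group was 0.73. Without both of these arrays, a setting chosen after seeing the data, it was 12 of 18 against 45.1%. The 18 rows carry 5 symbols, and rows of 1 symbol may share probes. These and the other counts of Trav rows are therefore not counts of independent readings.

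The gap in spread was widest for Trav9d-3. The row 17299919 had an SD of 1.98 in the anti-IL-10R arrays and 0.55 in the isotype arrays, and the row 17300054 had 1.55 and 0.66. The Trav14d-3-dv8 row 17299893 had 1.67 and 0.96. The 4 rows with the larger SD in the isotype group were Trav14d-3-dv8 17299913 (1.90 against 1.63), Trav7-4 17300155 (0.94 against 0.91) and Trav12-2 17300173 (0.66 against 0.52) and 17300032 (0.48 against 0.27).

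Split by gene copy, the 8 rows whose symbol carries a copy letter (Trav9d-3 and Trav14d-3-dv8) had a median SD of 1.34 after blockade and 0.57 with isotype antibody. In the 10 rows without such a letter the medians were 0.86 and 0.63. The median treatment difference was 0.26 in the rows with a copy letter and -0.29 in those without. With single arrays left out the first ran from 0.02 (without anti-IL-10R replicate 2) to 0.43 (without anti-IL-10R replicate 1). The second ran from -0.53 (without anti-IL-10R replicate 1) to -0.12 (without anti-IL-10R replicate 4). These splits compare different segments as well as copies and were not tested.

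No V segment row passed the test for a difference between anti-IL-10R and isotype. In limma, with Benjamini-Hochberg adjustment over all 41345 rows, 0 of the 21 rows had an adjusted p under 0.05, where 8 rows of the table were higher (0.0193%) and 4 lower (0.00967%), 0.029% in all. At an unadjusted p under 0.05 there were 2 of 21 rows, against 13.0% of all rows. An unmoderated test that allows unequal variances also gave 0 segment rows after adjustment. Before adjustment it gave 2, Trav12-2 17300173 and the flat Trav9d-3 17300247. The 2 rows of limma before adjustment were Trav12-2 17300173 and Trav3-4, so only Trav12-2 17300173 was found by both tests. The adjusted p of the segment rows ran from 0.234 to 0.993. Of the 21 rows, 9 were higher and 12 lower after blockade, with a median difference of -0.03, beside -0.01 over all rows.

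The groups did not overlap in 3 of the 21 rows, against 9.65% of all rows. Trav12-2 17300173 had an isotype mean of 10.59 ± 0.66 (SD, n = 4) and an anti-IL-10R mean of 9.40 ± 0.52, a difference of -1.19 ± 0.36 (SE, limma adjusted p = 0.234). All 4 anti-IL-10R arrays were below the isotype arrays, and with single arrays left out the difference stayed between -1.38 and -0.87. Trav3-4 had means of 7.12 ± 0.89 and 5.49 ± 1.10, a difference of -1.62 ± 0.60 (adjusted p = 0.315). Its value was -1.09 without anti-IL-10R replicate 4. Trav9d-3 17300247 differed by 0.16 ± 0.09 (adjusted p = 0.509), the only one of the 3 with the anti-IL-10R arrays higher. The other rows of Trav12-2 did not share the lower level of 17300173, since their differences ran from -0.03 to 0.13.

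**Figure D5:**
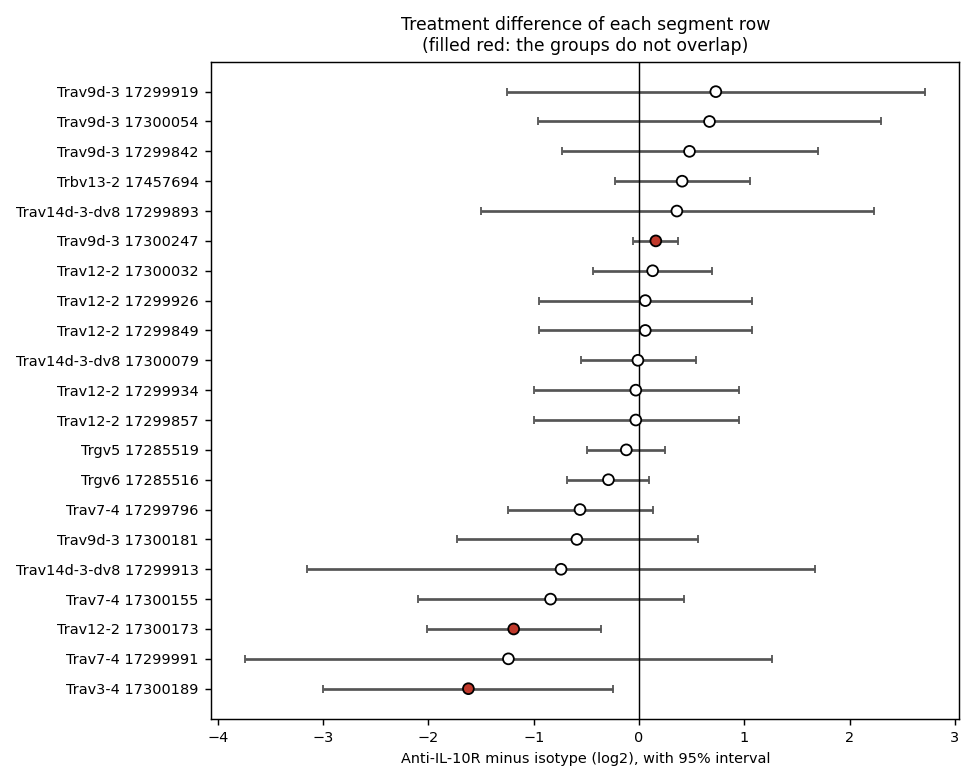
Difference of anti-IL-10R minus isotype (log2) with its 95% limma interval for each segment row, sorted by size, with filled red points where the groups do not overlap. The interval lies on 1 side of 0 only for Trav3-4 and Trav12-2 17300173, neither of which passed the adjusted threshold.

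The spread between arrays set how large a difference could be resolved. The median SE over the 21 rows was 0.44, against 0.17 over all rows. For Trav9d-3 17299919 the difference was 0.73 with a 95% interval of -1.25 to 2.72, and for Trav7-4 17299991 it was -1.24 with an interval of -3.74 to 1.26. Without anti-IL-10R replicate 2 the difference of that Trav9d-3 row was 0.03. That of the Trav7-4 row ran from -2.06 without isotype replicate 1 to -0.60 without anti-IL-10R replicate 4. It was also nearer 0, between -0.85 and -0.78, without isotype replicate 3, isotype replicate 4 or anti-IL-10R replicate 3. Such intervals include changes of several-fold in either direction, so the missing calls do not show that these segments were alike in the groups. For the flat row annotated Trav9d-3, 17300247, the interval was -0.06 to 0.37, and for Trbv13-2 the difference of 0.41 ± 0.28 (adjusted p = 0.57) had an interval of -0.23 to 1.05. Without anti-IL-10R replicate 4 the difference of Trbv13-2 was 0.12. Trgv5 and Trgv6 differed by -0.12 ± 0.16 and -0.29 ± 0.17.

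Genes of the receptor complex, of its signalling and of V segment recombination were measured for 12 of 16 listed members, and none passed the threshold in limma. Their differences were above 0 for 11 and below 0 for 1, with a median of 0.19. Over the table, 19701 of 41345 rows were above 0, and 11791 of the 20673 rows with a mean of at least 5.24. The groups did not overlap, as in 9.65% of all rows, for Cd3e, Cd3g, Cd8a, Cd8b1 and Themis, a regulator of T cell receptor signalling. Cd3e differed by 0.27 ± 0.09 (adjusted p = 0.289), Cd8a by 0.31 ± 0.09 and Themis by 0.37 ± 0.11 (both adjusted p = 0.215). Rag2, part of the recombinase that joins V segments, and Dntt, the polymerase that adds bases at the joins, are active in immature lymphocytes and were dim on all arrays (3.34 to 3.75 and 3.51 to 3.59). Of the V alpha rows, 8 of 18 had a difference above 0.

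The gate and other cells were checked by markers. Cd3e (12.23 to 12.61), Cd8a (10.72 to 11.15) and Pdcd1, which encodes PD-1 (10.34 to 11.55), were bright on all arrays, and Cd4 lay between 4.88 and 5.46. For Pdcd1 too the groups did not overlap, as in 9.65% of all rows. Its isotype arrays lay at 10.34 to 11.20, with replicate 1 the lowest, and its anti-IL-10R arrays at 11.33 to 11.55. The difference of Pdcd1 was 0.50 ± 0.19 (SE, limma adjusted p = 0.336). Cd44, which the gate selected as intermediate to high, was less bright, between 6.05 and 6.84. Il7r, which encodes the CD127 chain that the gate selected as low, was at 4.47 in isotype replicate 1 and 4.34 in anti-IL-10R replicate 4, against 3.08 to 3.48 in the other 6 arrays. Its part in the V alpha levels of those arrays was not tested. Foxp3, which marks regulatory T cells that carry receptors of their own, was at 7.97 in isotype replicate 1 and at 5.08 to 5.95 in the other arrays. Over the 4 listed CD4 T cell markers the isotype arrays had means of 5.15 to 5.94 and the anti-IL-10R arrays means of 5.08 to 5.38. The mean of 5.94 was that of isotype replicate 1 and included its high Foxp3. Cd4 was also highest there, at 5.46. Zbtb7b (6.08) and Cd40lg (4.27) lay within the other arrays, at 5.85 to 6.46 and 3.98 to 4.59. Isotype replicate 1 also had the highest mean of the NK cell and myeloid markers, with group ranges of 5.95 to 6.64 against 6.11 to 6.42 and 5.49 to 6.10 against 5.59 to 5.79. The markers of these lists did not move together in that array. Ncr1 (4.51), Klrb1c (5.29), Lyz2 (6.66), Itgam (6.80), Cd14 (5.01) and Adgre1 (4.79) were at their highest there. The brightest of each list, Eomes (10.13) and Cd68 (8.41), were at their lowest, and Csf1r (4.90) lay within the other arrays. The mean of 9 measured B cell markers was 5.35 to 6.00 with isotype antibody, and 5.46 to 5.57 with blockade. Among these markers Ighm was bright on all arrays (9.46 to 10.59), whereas no other one exceeded 6.82 on any array. Ighm was higher after blockade, by 0.35 ± 0.25 (SE, limma adjusted p = 0.59), whereas 7 of the 9 markers were lower. Of the markers of NKT and MAIT cells, which use set V alpha segments, only Zbtb16 was measured (5.28 to 6.44). The part of such cells in the V segment levels was not tested, beyond the counts without isotype replicate 1 given above.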

How the data were processed

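Values were deposited by the authors on a log2 scale, 1 per transcript cluster and array (read from their range, 1.57 to 13.89). The submitters' processing notes name Affymetrix Power Tools, and the arrays were GeneChip Mouse Gene 2.0 ST, per the labels' protocols. Summarisation and normalization were not stated in the labels. Array medians lay between 5.19 and 5.31. Symbols came from an annotation of the platform, in which 23521 rows had 1 symbol, 1814 several and 16010 none; all 21 member symbols matched RefSeq (GRCm38.p6) by gene ID. No genome position is given because the annotation's build is not named, and probe sequences were not used here.

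All 41345 rows entered limma 3.58.1 (R 4.3.3, lmFit and eBayes without trend), two-sided, with Benjamini-Hochberg adjustment and no filter on dim rows; 18 of the 21 rows had a mean of at least 5.24. The fit and the gap measure were tested on simulated or constructed data. Ranges, SDs and gaps are descriptions with no test. The members and lists were chosen with earlier results of these data known. Every segment row was named, beyond the rule fixed for named genes (largest gaps, smallest p, smallest SD per class). Arrays of equal replicate number showed no pairing (correlations of deviations from -0.096 to 0.023), and the main fit used none. These correlations cannot show that the arrays were unpaired, and some sample titles carry the same number in both groups.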

Additional observations from a re-analysis of the deposited data

Results flagged for a closer look

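Trav3-4 (transcript cluster 17300189) was at 8.45 in isotype replicate 4, far from the other 3 isotype arrays, which lay between 6.59 and 6.78. Of 42 groups of 4 arrays examined over the 21 segment rows, this was the only one in which an array stood so far from its group, and chance marks about 1 in 20 groups. Without this array the difference of Trav3-4 between anti-IL-10R and isotype was -1.18, against -1.62 with all arrays.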

How the results depend on the processing

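No segment row passed an adjusted p of 0.05 under any alternative run, and the lowest adjusted p among them was 0.0978. The count of rows called over the whole table depended strongly on the setting, from 12 (8 higher, 4 lower) to 103 with rows of a mean of at least 5.24, 352 with rows of at least 6.97, 153 (52 higher, 101 lower) after quantile normalization, 145 (67 higher, 78 lower) with 1 row per gene, 64 with a trended and robust variance model, 386 (178 higher, 208 lower) with array weights, 3 with the unmoderated test, and 0 with a covariate, the mean of the B cell markers. With the replicate block it was also 0 (segment rows 0). With 1 array left out it ran from 2 to 47, the latter without isotype replicate 1. Filters also test fewer rows, and why the counts differed was not tested for any setting. Of the 21 segment rows, 14 kept the sign of their difference throughout. Of the others, Trav14d-3-dv8 17299893 had a difference of 0.36 with all arrays, and the 5 Trav12-2 rows and Trav14d-3-dv8 17300079 had differences between -0.03 and 0.13. Trav14d-3-dv8 17300079 was at 0.03 after quantile normalization and 0.11 with array weights, and Trav12-2 17299857 and 17299934 at 0.16 with array weights and 0.05 with the covariate. With 1 array left out, Trav12-2 17299849 and 17299926 ran from -0.21 to 0.36, 17299857 and 17299934 from -0.44 to 0.30 and 17300032 from -0.08 to 0.28. Trav14d-3-dv8 17299893 ran from -0.44 (without anti-IL-10R replicate 2) to 0.80 and 17300079 from -0.22 to 0.11. The count of rows with a highest array standing apart was 7 of 21 at a gap of 0.5 (13.2% of all rows) and 2 to 5 with 1 array left out. That for a lowest array was 7 at a gap of 0.5 (10.8%), 1 at 1.5 and 1 of 8 with 1 row per gene. The median absolute distance over Trav rows was 0.45 for isotype replicate 3 with the filter at 5.24, and 0.69 and 0.57 for isotype replicates 1 and 4 after quantile normalization. With 1 array left out it ran from 0.40 to 0.55, 0.43 to 0.87, 0.33 to 0.45 and 0.26 to 0.63 for isotype replicates 1 to 4, and for anti-IL-10R replicate 4 from 0.97 to 1.29. Counting identical rows once (chosen after seeing the data) changed no call. The split of J alpha rows by number was not run, as no such row qualified. Detection above background was not read, so levels of dim rows (Trgv5, Trgv6, Trav14d-3-dv8 17300079) may be background.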
